A study of Mus musculus with 12 samples.

Results

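The genes described here are 10 transcriptional targets of p53 that lie outside the Bcl2 family: Cdkn1a, Ccng1, Mdm2, Zmat3, Aen, Eda2r, Phlda3, Sesn2, Trp53inp1 and Perp. Every probe set of the array whose only gene symbol in the platform annotation was one of these was taken, which gave 20 of the 34945 probe sets with 1 symbol, for 10 of 18193 genes. The arrays measured RNA of mouse epiblast stem cells (EpiSCs), pluripotent cells that resemble the epiblast after implantation, all kept in N2B27 to which bFGF and Activin A were added. The 12 arrays held 3 biological replicates each of diploid EpiSC-1 and diploid EpiSC-2, labelled with the strain B6D2F1, and of haploid EpiSC-1 and haploid EpiSC-2, labelled 129Sv. No genetic change or added agent was named for any group. Haploid cells carry a single chromosome set. Strain and ploidy divided the arrays in the same way and cannot be told apart, so "haploid" and "diploid" below name the labels of the lines. The labels do not say how the lines were derived, what share of the cells was haploid at harvest, or whether replicates came from separate cultures, and p-values between lines then measure only the spread between these samples.

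The transcription factor p53 is stabilised by DNA damage and other stresses and binds a DNA element made of a pair of 10-base half-sites. Its targets include brakes of the cell cycle, inducers of cell death, and Mdm2, the ubiquitin ligase that returns p53 to a low level. Loss of p53 is known to favour the haploid state of mammalian cells in culture.

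Promoter sequences show where the element can be read beside these genes. RefSeq promoter windows of the GRCm38.p6 assembly, from 250 bases before to 50 bases after a transcript start, were held for 7 of the 10 genes (Cdkn1a, Ccng1, Mdm2, Aen, Eda2r, Phlda3 and Sesn2), and not for Zmat3, Trp53inp1 and Perp. They were searched for the p53 half-site consensus, which reads the same on both strands, alone without a mismatch, or as 2 adjoining half-sites with at most 2 mismatches and the C and G of each CNNG core kept. The full element was found in 0.326% of all 32851 windows, and among the 7 genes in those of Cdkn1a and Ccng1, each with 1 mismatch. They are shown because these genes had several probe sets far lower in the haploid lines. Capitals mark the element. In Cdkn1a it lies 51 to 32 bases before the upstream start (chr17:29090878-29090978, plus strand), and in Ccng1 195 to 176 bases before the start (chr11:40755412-40755531, minus strand).
Cdkn1a: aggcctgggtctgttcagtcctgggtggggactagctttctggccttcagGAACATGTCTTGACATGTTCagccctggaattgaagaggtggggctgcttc
Ccng1: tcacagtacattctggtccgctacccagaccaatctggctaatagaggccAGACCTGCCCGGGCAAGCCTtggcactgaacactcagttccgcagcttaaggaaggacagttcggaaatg
With 3 mismatches allowed, which 1.38% of windows met, an element was also found in Aen (chr7:78895932-78895961, plus strand). An exact single half-site was present in 8.36% of windows, and in Mdm2 it lay 186 to 177 bases before the start (chr10:117710895-117710984, minus strand). The elements of Cdkn1a, Ccng1 and Aen each hold 1 exact half-site within them.
Aen: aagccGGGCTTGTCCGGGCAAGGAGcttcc
Mdm2: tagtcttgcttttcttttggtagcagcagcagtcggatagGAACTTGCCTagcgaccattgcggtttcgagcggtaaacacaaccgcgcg
Binding was not measured, and a match in letters is a description of the window only.

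The deposited values were MAS5 signals on a linear scale, each array scaled to the same mean, and they were compared as log2 signals. Array medians were 63.6 to 76.5. Over the brighter probe sets, the correlation of arrays was 0.987 to 0.990 within a line and 0.871 to 0.915 across ploidies. The actin control had a 3'/5' ratio of 1.34 to 1.42 on haploid and 1.46 to 1.68 on diploid arrays. Markers of the epiblast were present in all lines, with Pou5f1 at mean signals of 8875 to 9595 in diploid and 4264 to 6855 in haploid lines, but Otx2 and Fgf5 were at 73.8 and 83.3 in haploid EpiSC-1 against 2131 to 3961 in the other lines. Of 10 epiblast markers, 8 had a ploidy difference below 0 (median -0.72 on the log2 scale), against 49.7% of all genes. By limma, 1 was called lower and 2 higher in haploid lines, where 0.759% of all genes were called lower and 1.94% higher. These counts were 0 and 0 without an intensity trend and without haploid EpiSC-1, and 3 and 1 without haploid EpiSC-2. The lower call also ended with quantile normalization and without diploid EpiSC-2. At an unadjusted p under 0.05, 3 were lower and 2 higher (7.31% and 10.4% of all genes), and with lines as a random block 5 and 2 (8.66% and 10.7%). An earlier fit of these data with lines as a random block called many unchanged genes in simulation. Random block counts, here and below, are given as description only. Their summed signal was 54365 to 70222 on diploid and 37020 to 50127 on haploid arrays. Fibroblast feeder markers stood apart by ploidy: 12 of 17 were higher in haploid lines and 0 lower by limma, where 1.94% of all genes were called higher. At an unadjusted p under 0.05, 15 were higher and 0 lower (10.4% and 7.31% of all genes). The 12 calls became 2 without an intensity trend, 6 without haploid EpiSC-1 and 8 without haploid EpiSC-2. The summed signal of the 17 markers was 1500 to 3833 on diploid and 32568 to 34495 on haploid arrays. Of these, Thy1 (108 to 202) and Fap (7.19 to 27.2) were low in every line, and no marker was listed at 0. Of 9 endoderm markers 1 was higher (summed signal 1043 to 1892 on diploid and 1004 to 3719 on haploid arrays), and of 6 trophoblast markers 1 (805 to 1075 and 1446 to 1718). The share of all genes called higher was 1.94%. The endoderm call ended without diploid EpiSC-2, haploid EpiSC-1 or haploid EpiSC-2, and without haploid EpiSC-2 2 endoderm markers were called lower. The trophoblast call ended with the signal filter, with a pseudocount of 16, without diploid EpiSC-1, without haploid EpiSC-1 and without replicate 1 of diploid EpiSC-2. Neither was made without an intensity trend. The part of these differences in the results below was not tested.

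The first question was whether the p53 targets differed between haploid and diploid lines. These targets were chosen with earlier results of these data known, and setting them beside all genes is a description and no independent test. They were lower in the haploid lines: on its brightest probe set, each of the 10 genes had a log2 difference below 0, against 49.7% of all 18193 genes, with a median of -1.86 against 0.00. Cdkn1a, Ccng1, Zmat3, Aen, Eda2r and Phlda3 fell past the threshold, by 3.2-fold (Aen) to 8.25-fold (Ccng1) for the genes other than Eda2r. Eda2r fell by 5.32 on the log2 scale, or by 4.41 with a pseudocount of 16, and its haploid signals were too low to fix the size of the fold. Mdm2, Sesn2, Trp53inp1 and Perp did not pass. The positions given with each gene are those of its whole locus in GRCm38.p6, from RefSeq. The test was limma on the means of the 4 lines, 2 against 2, with a Benjamini-Hochberg adjusted p under 0.05 over all 34945 probe sets, since arrays of 1 line are not replicates of a ploidy. By it, 6 of the 10 genes were lower, where the share of all genes called lower was 0.759%. Over all probe sets of the genes, 9 of 20 were lower and 0 higher, where 0.684% of all probe sets were called lower and 1.69% higher. Arrays of the ploidies did not overlap in 9 of the 10 genes, against 9.75% of genes that were lower without overlap. Of the 10 genes, 9 were at least 2-fold lower, against 7.14% of all genes. All 10 genes were also below 0 when each array was centred on its median (a shift of -0.12 in the median of all probe sets) and with quantile normalization. In bulk RNA, fewer cells of a type and less RNA per cell cannot be told apart. All 6 calls ended when the variance was moderated without an intensity trend, a setting that left 29 calls in place of 828 over the whole array, and without haploid EpiSC-1 5 of the 20 probe sets were called in place of 9.

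**Figure D1:**
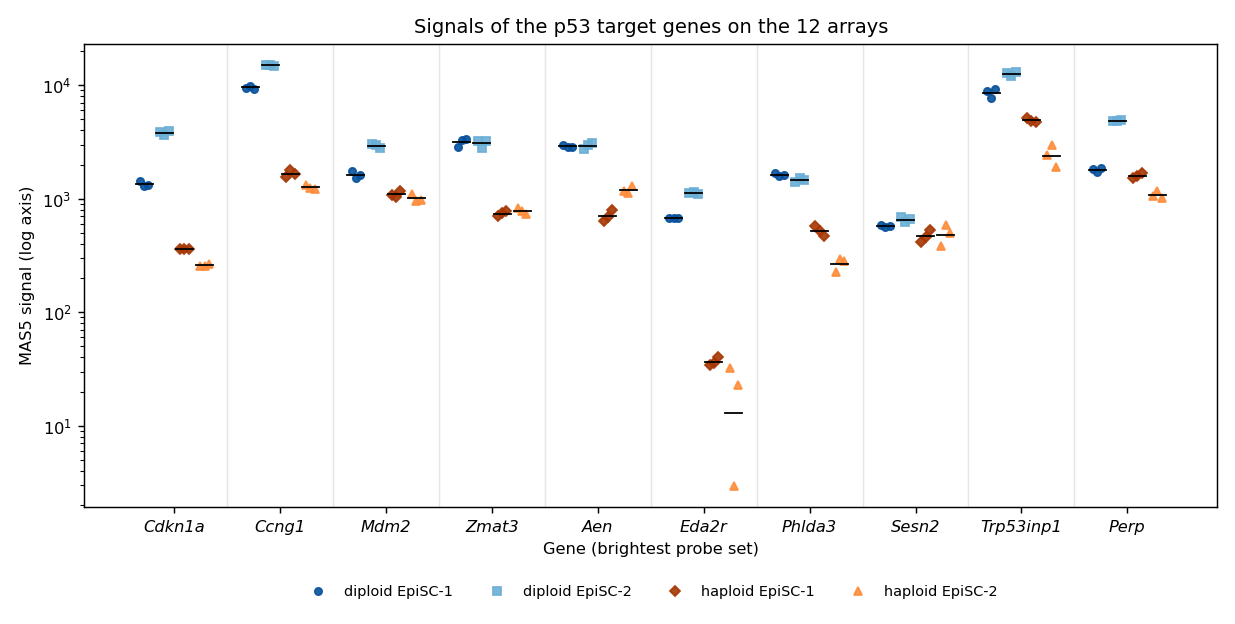
MAS5 signal (log axis) of the brightest probe set of each of the 10 genes on the 12 arrays, 3 arrays in each of 4 lines, with black bars at the geometric mean of a line. In 9 of the 10 genes every haploid array lay below every diploid array, with Sesn2 the exception.

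Among the genes that halt the cell cycle, Cdkn1a (chr17:29090979-29100722) encodes p21, the inhibitor of cyclin-dependent kinases through which p53 arrests cells in G1. Its brighter probe set read 1429, 1282 and 1335 in diploid EpiSC-1, 3885, 3668 and 3931 in diploid EpiSC-2, 358, 361 and 364 in haploid EpiSC-1 and 257, 258 and 265 in haploid EpiSC-2. Both haploid lines were low and tight, and the lowest diploid array was 3.52-fold above the highest haploid one. On the log2 scale the haploid lines differed by -2.89 ± 0.47 (limma SE, 2 lines of each ploidy, limma adjusted p = 0.0311), a 7.41-fold lower signal. Here and below, limma draws the variance behind an SE towards that of probe sets of similar intensity. An SE is therefore not the plain spread between the lines. Its other probe set gave -3.12 ± 0.50 (adjusted p = 0.0293), with signals of 641 to 1626 on diploid and 21.3 to 214 on haploid arrays. The call of the brighter probe set ended without haploid EpiSC-1 (adjusted p = 0.104) and without haploid EpiSC-2 (adjusted p = 0.0906), with differences of -3.13 and -2.65.

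Ccng1 (chr11:40748552-40755309) encodes cyclin G1, which recruits a phosphatase to Mdm2. The brightest of its 3 probe sets read 9511, 9889 and 9342 in diploid EpiSC-1 and 15064, 15020 and 14716 in diploid EpiSC-2. In haploid EpiSC-1 it read 1551, 1801 and 1661, and in haploid EpiSC-2 1316, 1239 and 1222. The haploid arrays thus formed a low group without overlap, at a log2 difference of -3.05 ± 0.27 (limma adjusted p = 0.00522). The other probe sets gave -4.21 ± 0.24 (adjusted p = 0.00106), a rank of 20 among 34945 counted from the lowest difference, and -2.95 ± 0.25 (adjusted p = 0.00486). The call on the brightest probe set was kept without any single line or array. Ccng1 lies on chromosome 11, whose 1443 genes had a median log2 difference of -0.23. The medians of the other chromosomes that carry these genes lay between -0.05 and 0.24.

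Among the genes tied to cell death, Eda2r (chrX:97333837-97377234) encodes XEDAR, a member of the TNF receptor family. Its single probe set read 674, 670 and 674 in diploid EpiSC-1 and 1123, 1142 and 1095 in diploid EpiSC-2. It read 34.2, 35.4 and 40.4 in haploid EpiSC-1 and 32.3, 2.92 and 23.0 in haploid EpiSC-2. All haploid signals were below 62.6, the typical (median) mean signal of a probe set, so the size of the fold is uncertain. The log2 difference was -5.32 ± 0.55 (limma adjusted p = 0.00812), rank 9 of 34945 from the lowest, and -4.41 with a pseudocount of 16. Eda2r lies on the X chromosome, whose 617 genes had a median of 0.24 in the opposite direction.

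Aen (chr7:78895927-78911209) encodes an apoptosis-enhancing nuclease. Its brightest probe set read 2996, 2854 and 2868 in diploid EpiSC-1, 2744, 2997 and 3091 in diploid EpiSC-2, 642, 684 and 802 in haploid EpiSC-1 and 1162, 1113 and 1283 in haploid EpiSC-2. The diploid lines overlapped, and the haploid lines stood below them and apart from each other. Haploid minus diploid was -1.68 ± 0.28 on the log2 scale (limma adjusted p = 0.0327). The other 3 probe sets of Aen were dimmer and gave -1.44, -0.66 and -0.69, none past the threshold (adjusted p = 0.0629, 0.521 and 0.578), and arrays overlapped on the dimmest pair. The call ended with the mean of all 4 probe sets (-1.12), without diploid EpiSC-1 (adjusted p = 0.0653), without diploid EpiSC-2 (adjusted p = 0.0573) and without haploid EpiSC-1 (-1.30, adjusted p = 0.135).

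Phlda3 (chr1:135766085-135769134) encodes a pleckstrin homology domain protein that competes with the kinase Akt for membrane lipids. Its signals were 1700, 1578 and 1619 in diploid EpiSC-1, 1409, 1531 and 1477 in diploid EpiSC-2, 572, 516 and 466 in haploid EpiSC-1, and 228, 294 and 283 in haploid EpiSC-2. Diploid lines were close, and haploid EpiSC-2 was the lowest line. The log2 difference was -2.06 ± 0.34 (limma adjusted p = 0.0318). The call ended without diploid EpiSC-1 (adjusted p = 0.0700) and without haploid EpiSC-2 (-1.59, adjusted p = 0.0669).

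Perp (chr10:18845071-18857073), a membrane protein of desmosomes that also takes part in p53-dependent cell death, did not pass the threshold. It read 1825, 1727 and 1875 in diploid EpiSC-1, 4808, 4875 and 4938 in diploid EpiSC-2, 1525, 1601 and 1675 in haploid EpiSC-1 and 1056, 1178 and 1016 in haploid EpiSC-2. Diploid EpiSC-2 stood far above the other lines, and the lowest array of diploid EpiSC-1 was only 1.03-fold above the highest of haploid EpiSC-1. Its log2 difference was -1.17 ± 0.45 (limma adjusted p = 0.258). It was -0.46 without diploid EpiSC-2 and -1.89 without diploid EpiSC-1, where it passed (adjusted p = 0.0284).

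Trp53inp1 (chr4:11156441-11174379) encodes a nuclear protein that promotes p53 activity and autophagy. Its brighter probe set read 8974, 7644 and 9334 in diploid EpiSC-1, 12785, 12038 and 13080 in diploid EpiSC-2, 5100, 4853 and 4755 in haploid EpiSC-1 and 2428, 2962 and 1901 in haploid EpiSC-2. The 4 lines formed 4 separate levels, with both haploid lines below both diploid ones. The log2 difference was -1.61 ± 0.35 (limma adjusted p = 0.0741), and it passed with arrays centred on their medians. The dimmer probe set gave -1.34 ± 0.48 (adjusted p = 0.227), with signals of 19.4 to 127 over all arrays.

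**Figure D2:**
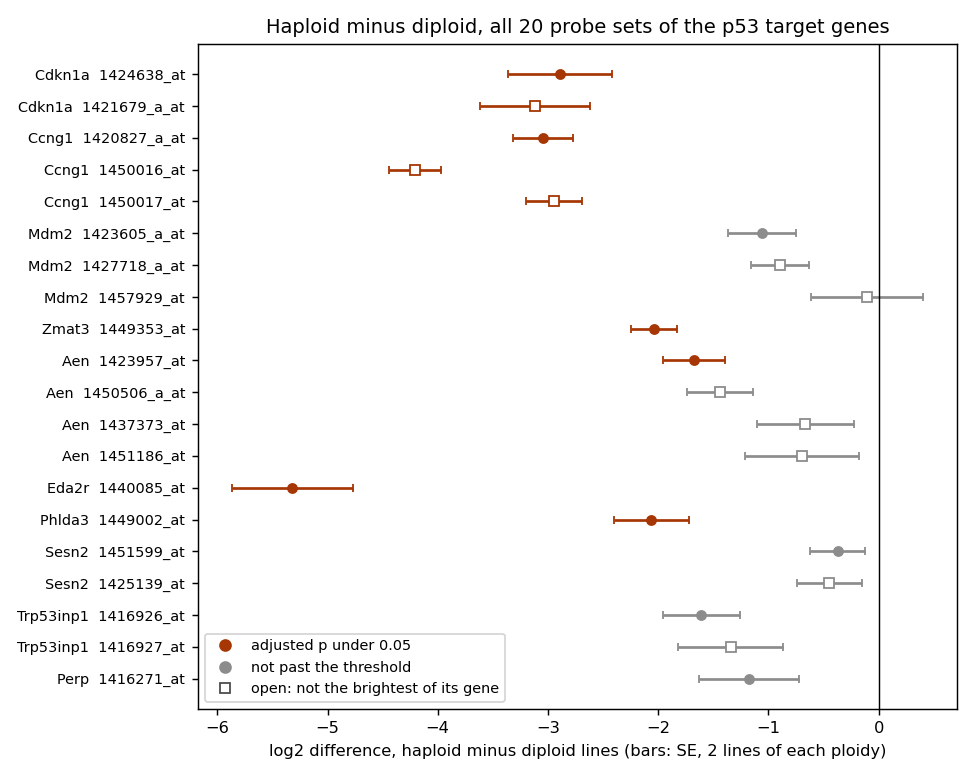
The log2 difference between haploid and diploid lines for each of the 20 probe sets. Bars are the moderated SE of limma, with 2 lines of each ploidy. Red marks a limma adjusted p under 0.05 and grey the rest. Filled circles are the brightest probe set of a gene and open squares its other probe sets. All 20 values lie below 0, from -5.32 for Eda2r to -0.10 for the dimmest probe set of Mdm2.

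In the feedback on p53 itself, Mdm2 (chr10:117688875-117710758) is both a target and the main inhibitor. Its brightest probe set read 1766, 1509 and 1619 in diploid EpiSC-1, 3067, 2947 and 2822 in diploid EpiSC-2, 1085, 1039 and 1160 in haploid EpiSC-1 and 1097, 963 and 971 in haploid EpiSC-2. The haploid lines shared one level, below both diploid lines. Its log2 difference was -1.06 ± 0.31 (limma adjusted p = 0.147), and a further probe set gave -0.90 ± 0.26 (adjusted p = 0.149), also without overlap of arrays. The last probe set of Mdm2 lay between 18.3 and 57.9 on all arrays, with overlapping groups. The difference on the brightest probe set passed without diploid EpiSC-1 (-1.49, adjusted p = 0.0406) and was -0.63 without diploid EpiSC-2.

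Zmat3 (chr3:32334792-32365665), a zinc finger RNA-binding protein that controls splicing and mRNA stability downstream of p53, was nearly level between lines of the same ploidy. It read 2841, 3297 and 3373 in diploid EpiSC-1, 3245, 2797 and 3258 in diploid EpiSC-2, 698, 750 and 776 in haploid EpiSC-1 and 828, 784 and 739 in haploid EpiSC-2. Lines of the same ploidy overlapped, and the ploidies were 3.38-fold apart at their nearest arrays. The log2 difference was -2.04 ± 0.21 (limma adjusted p = 0.00808), and the call ended without haploid EpiSC-1 (adjusted p = 0.0525).

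Sesn2 (chr4:132492804-132510456) encodes a stress-induced inhibitor of mTORC1 that also responds to amino acid shortage and to other transcription factors. It read 582, 559 and 579 in diploid EpiSC-1, 684, 621 and 662 in diploid EpiSC-2, 412, 461 and 533 in haploid EpiSC-1 and 383, 588 and 497 in haploid EpiSC-2. The groups overlapped through 1 array of haploid EpiSC-2. Its log2 difference of -0.37 ± 0.25 (limma adjusted p = 0.531) was the smallest of the 10 genes on brightest probe sets. The other probe set gave -0.45 ± 0.29 (adjusted p = 0.520).

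The second question was how far the targets differed between lines of the same ploidy and strain, tested with limma on the 12 arrays as 4 group means. Between the haploid lines, 5 of 10 genes were lower in haploid EpiSC-2 and 1 was higher, where 18.6% of all genes were called lower and 14.9% higher. Between the diploid lines, 5 of 10 were higher in diploid EpiSC-2 and 0 lower, where 16% of genes were higher and 16.9% lower. The split of calls between the haploid lines over the whole array depended on scaling, with 44.9% of called probe sets higher in haploid EpiSC-2 as deposited and 66.1% with arrays centred on their medians, a shift of 0.16 in the median of all probe sets.

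**Figure D3:**
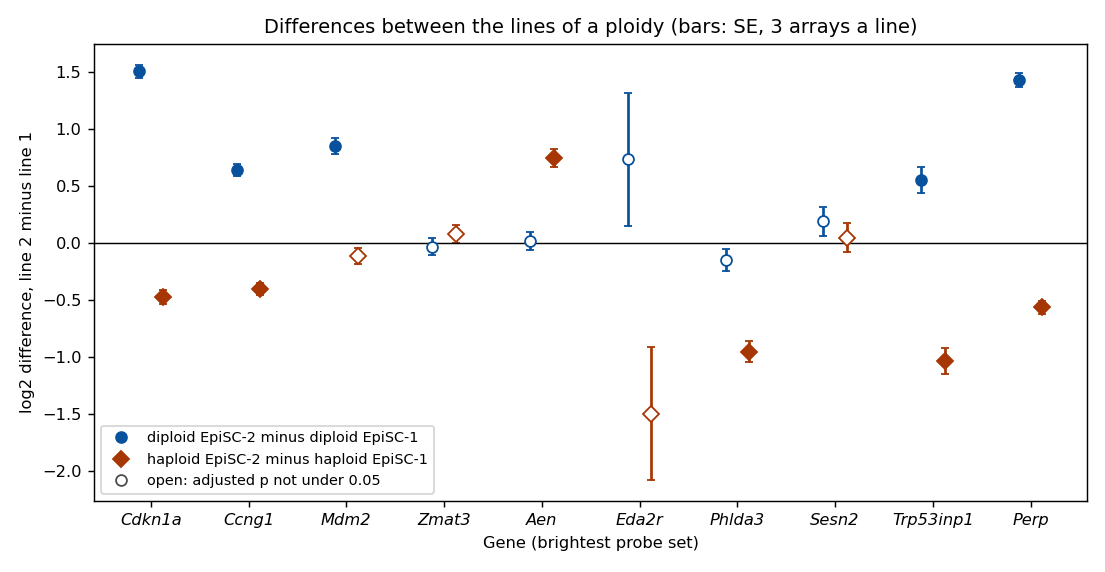
The log2 difference between line 2 and line 1 within each ploidy for the brightest probe set of each gene. Bars are the moderated SE of limma, with 3 arrays a line. Filled symbols had a limma adjusted p under 0.05. Cdkn1a, Ccng1, Trp53inp1 and Perp were higher in diploid EpiSC-2 and lower in haploid EpiSC-2 than in the other line of their ploidy, and Zmat3 lay near 0 in both.

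Cdkn1a and Perp differed most between the diploid lines, by 1.51 ± 0.06 (limma adjusted p = 3.68e-11) and 1.43 ± 0.06 (adjusted p = 6.62e-11) on the log2 scale. The other probe set of Cdkn1a did not pass between the diploid lines (1.11 ± 0.53, limma adjusted p = 0.143). Mdm2 was higher in diploid EpiSC-2 by 0.85 ± 0.07, Ccng1 by 0.64 ± 0.05 and Trp53inp1 by 0.55 ± 0.11. The dimmer probe sets of Mdm2 were at 0.29 and 0.73 (limma adjusted p = 0.0392 and 0.330). That of Trp53inp1 was at 0.70 (limma adjusted p = 0.172). Between the haploid lines, the order of the same genes was turned or level. Haploid EpiSC-2 was lower in Trp53inp1 (-1.04 ± 0.11), Phlda3 (-0.95 ± 0.09), Perp (-0.56 ± 0.06), Cdkn1a (-0.47 ± 0.06) and Ccng1 (-0.41 ± 0.05), all with a limma adjusted p at or below 2.29e-05. The other probe set of Cdkn1a did not pass there (-1.15, adjusted p = 0.133), and averaging both Cdkn1a probe sets ended the call (-0.81, adjusted p = 0.0531). Mdm2 was at -0.12 ± 0.07 (adjusted p = 0.258), and turned to 0.04 with arrays centred on their medians. Aen was the gene higher in haploid EpiSC-2, by 0.75 ± 0.08 (adjusted p = 2.55e-06), and 2 of its other 3 probe sets were higher too (0.56 and 1.14, adjusted p = 3.00e-04 and 6.47e-04).

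Of the 10 genes, 8 were highest in diploid EpiSC-2 and 7 were lowest in haploid EpiSC-2. Not every step in that order was larger than the spread between arrays. Zmat3, Aen, Phlda3 and Sesn2 did not pass between the diploid lines, at differences of -0.15 to 0.19. Zmat3, Mdm2 and Sesn2 did not pass between the haploid lines, at -0.12 to 0.08. Eda2r is a separate case, because the fit shares one spread over the 4 lines and its 3 signals in haploid EpiSC-2 had a standard deviation of 1.87 on the log2 scale. Between the diploid lines, whose arrays did not overlap, Eda2r was at 0.74 ± 0.58 (limma adjusted p = 0.410). The same difference passed with only the diploid arrays in the fit (adjusted p = 6.23e-06), without replicate 2 of haploid EpiSC-2 (adjusted p = 0.00111) and with a pseudocount of 16 (0.72). Between the haploid lines Eda2r was at -1.50 ± 0.58 (adjusted p = 0.0705). That value rested on replicate 2 of haploid EpiSC-2, without which it was -0.43. It passed without replicate 1 (-2.16) or replicate 3 (-1.91), with the signal filter, and with a pseudocount of 16 (-0.68). The dimmer probe set of Sesn2 was lower in diploid EpiSC-2 by -0.56 ± 0.10 (adjusted p = 3.84e-04), while its brighter one was at 0.19.

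The rest of the pathway was followed in gene lists drawn up for this purpose, on the brightest probe set of each gene. The lists too were chosen with earlier results of these data known, so their counts are no independent support. Of 28 other p53 targets, 4 fell (Dcxr, Btg2, Tigar and Ercc5) and 0 rose by limma, where 0.759% of all genes were called lower and 1.94% higher. At an unadjusted p under 0.05, 13 were lower and 2 higher, where 7.31% and 10.4% of all genes were. With lines as a random block, the setting that called many unchanged genes in simulation, 11 were lower and 1 higher, where 8.66% and 10.7% of all genes were. The list median was -0.58 against 0.00 for all genes, and 21 of 28 were below 0, against 49.7% of all genes. Arrays did not overlap in 12 lower and 2 higher members. Over the array, 9.75% of genes were lower and 10.7% of probe sets higher without overlap. Dcxr, a carbonyl reductase, fell by 3.54 on the log2 scale (limma adjusted p = 0.0117), from 1592 to 2346 on diploid arrays to 93.6 to 277 on haploid ones. Btg2, an antiproliferative cofactor of mRNA decay, changed by -1.90 ± 0.35 (adjusted p = 0.0433), and Tigar, a fructose bisphosphatase that restrains glycolysis, by -1.78 ± 0.28 (adjusted p = 0.0268). With the mean of all probe sets, Tigar was at -0.63 and its call ended. Ercc5, an endonuclease of nucleotide excision repair, changed by -1.42 ± 0.25 (adjusted p = 0.0366) and was singled out after its values were seen. With the mean of all probe sets it was at -0.57, and its call ended. Without an intensity trend 0 of the 28 were called, with Dcxr at a limma adjusted p of 0.119. Dcxr kept its call without any 1 line. Tigar (adjusted p = 0.0573 to 0.127) and Ercc5 (0.0536 to 0.144) lost theirs without each of the 4 lines in turn, and Btg2 without diploid EpiSC-2 (0.0573), haploid EpiSC-1 (0.189) or haploid EpiSC-2 (0.107). With the signal filter the call of Btg2 also ended, which left 3 of 26 other targets lower. Steap3, a ferrireductase, was at -1.77 (adjusted p = 0.226). The highest differences were those of the death receptor gene Fas at 1.57, the autophagy gene Dram1 at 1.37, Kitl at 1.34 and Pml at 0.51, with adjusted p values of 0.453, 0.254, 0.190 and 0.454. Fas lay between mean signals of 10.9 and 135 in the 4 lines. Btg2 was also higher in diploid EpiSC-2 than in diploid EpiSC-1, by 1.08 ± 0.08 (limma adjusted p = 3.27e-08). Within a ploidy, 14 of the 28 other targets were higher and 3 lower in diploid EpiSC-2 than in diploid EpiSC-1, with a median of 0.33. Between the haploid lines, 11 were lower and 2 higher in haploid EpiSC-2, with a median of -0.26. The shares of all genes called in these comparisons are those given above for the line comparisons.

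**Figure D4:**
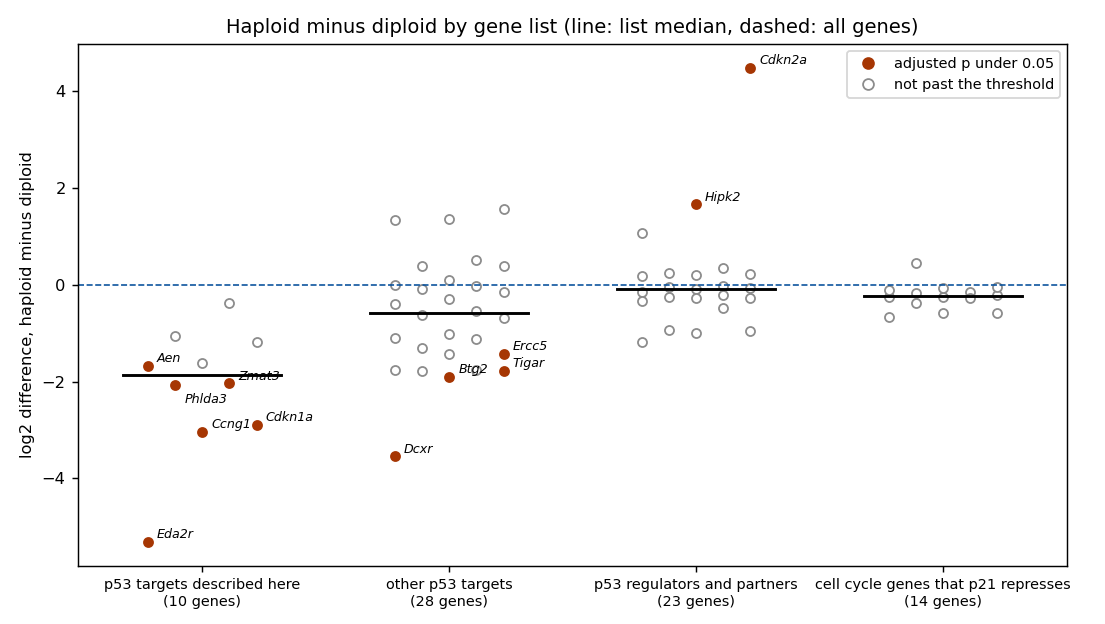
The log2 difference between haploid and diploid lines of each gene (brightest probe set) in 4 lists, red where the limma adjusted p was under 0.05, with the list median as a black line and the median of all 18193 genes dashed. The p53 targets described here have a median of -1.86 and the 28 other targets -0.58, while regulators and cell cycle genes lie at -0.09 and -0.23.

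Of 23 regulators and partners of p53, 2 rose and 0 fell by limma, where 1.94% of all genes were called higher and 0.759% lower, with a median of -0.09. At an unadjusted p under 0.05, 3 were higher and 4 lower (10.4% and 7.31% of all genes), and with lines as a random block 4 and 5 (10.7% and 8.66%). The p53 gene itself was not analysed here. Cdkn2a, the locus of the cell cycle inhibitor p16 and of ARF, which restrains Mdm2, had 35.8 to 64.4 in diploid EpiSC-1, 219 to 260 in diploid EpiSC-2, 2477 to 3707 in haploid EpiSC-1 and 1740 to 1937 in haploid EpiSC-2. All haploid arrays were above all diploid ones, while for Cdkn1a all were below. Cdkn2a rose by 4.49 ± 0.72 on the log2 scale (limma adjusted p = 0.0298). That call ended without haploid EpiSC-1 (adjusted p = 0.151), without haploid EpiSC-2 (0.0605) and without an intensity trend (0.171). The fibroblast feeder markers rose in the same lines, Col3a1 among them by 6.56 ± 0.42, and their part in the Cdkn2a value was not tested. Hipk2, a kinase that phosphorylates p53, rose by 1.66 ± 0.29 (adjusted p = 0.0356), but its call ended with quantile normalization and with the mean of its probe sets (0.83). It also ended without diploid EpiSC-1 (adjusted p = 0.0785), haploid EpiSC-1 (0.211) or haploid EpiSC-2 (0.0564), and without an intensity trend (0.264). The lowest differences were those of Trp73 (-1.17, adjusted p = 0.289), Mdm4, the partner of Mdm2 (-0.99, adjusted p = 0.0856), and the checkpoint kinase genes Atr (-0.95, adjusted p = 0.0842) and Chek2 (-0.93, adjusted p = 0.126). Ppp1r13b and Cop1 were at 1.06 and 0.36 (adjusted p = 0.241 and 0.463).

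Cell cycle genes that are repressed through p21 were also followed, since Cdkn1a was 7.41-fold lower. Of 14, 0 rose and 0 fell by limma, where 1.94% of all genes were called higher and 0.759% lower, so that a count of 0 in a list of this length is near the background. Their median was -0.23, with 13 below 0, against 49.7% of all genes. Arrays did not overlap in 5 lower and 0 higher members, where 9.75% of all genes were lower and 10.7% of probe sets higher without overlap. The summed signal of the 14 genes was 82369 to 90918 on diploid and 67474 to 69966 on haploid arrays. At an unadjusted p under 0.05, 3 were lower and 0 higher (7.31% and 10.4% of all genes), and with lines as a random block in limma 5 and 0 (8.66% and 10.7%). Aurkb, Cdc20 and Birc5, genes of mitosis, were at -0.67, -0.58 and -0.58 (adjusted p = 0.243, 0.193 and 0.171), and Top2a at -0.38 (adjusted p = 0.309). Foxm1, a transcription factor of mitotic genes, was at 0.46, Chek1 at -0.04, Bub1 at -0.06 and Cdc25c at -0.11 (adjusted p = 0.485, 0.962, 0.907 and 0.887). Over the 26 alternative settings Bub1 ranged from -0.93 to 0.052, and it was called in 0 of them.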

How the data were processed

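The values were MAS5 signal intensities of Affymetrix 430 2.0 arrays, deposited by the authors on a linear scale, with MAS5 named per the submitters' processing notes (no version is given in the sources used here). Every array had a 2% trimmed mean of 500. All comparisons used log2 of the deposited intensity, computed here without a pseudocount, since no value was at or below 0. Of 45101 probe sets, 64 controls, 932 with several symbols and 9160 with none were left out. Ploidy was tested with limma 3.58.1 (R 4.3.3, eBayes with an intensity trend) on the means of the 4 lines, and lines of a ploidy on the 12 arrays. P-values were Benjamini-Hochberg adjusted over 34945 probe sets, with a threshold of 0.05 and no signal filter. The code was tested on simulated data. The brightest probe set stands for a gene. All 10 genes and the 4 highest and 4 lowest differences of each list were named. Members and lists were chosen with earlier results of these data known. The number of arrays and lines limits the precision. Alternatives were scaling, filters, a pseudocount of 16, probe set means, the variance model, line and replicate blocks (statmod 1.5.0), and leaving out arrays or lines.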

Additional observations from a re-analysis of the deposited data

How the results depend on the processing

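Under 26 alternatives for the ploidy comparison and 21 for each line comparison, the ploidy difference of all 10 target genes stayed below 0. The count of probe sets called between ploidies (828, of which 9 of the 20 target probe sets) was 325 with brightest, filtered probe sets, 426 (5 of 10 genes) with probe set means, 29 (0) without an intensity trend, 5655 (14) with lines as a random block, 15377 (18) with arrays as units, 112 (5) without haploid EpiSC-1 and 513 without haploid EpiSC-2. Between haploid lines (9761, with 10 target probe sets) it was 6288 with brightest, filtered probe sets and 4642 (5) with probe set means, and between diploid lines (10392, with 9) 6196 (5) and 4592 (5). Without 1 array the counts were 742 to 862 (9 in each), 8416 to 9875 (10 to 12) and 9188 to 10422 (7 to 10). Replicate numbers paired the arrays weakly at most. Deviations of same-numbered arrays of different lines correlated at -0.0353 to 0.0807 (median 0.0026). Those of differently numbered arrays correlated at -0.0728 to 0.0332 (median -0.0010). With a replicate block the line counts were 9701 and 10337, and with the line block added the ploidy count was 4899 (14). Uncalled differences turned sign for Foxm1 (-0.011) with probe set means, Bub1 with quantile normalization (0.050) and without haploid EpiSC-2 (0.052), Chek1 without diploid EpiSC-1 (0.075) or haploid EpiSC-1 (0.13), and Cdc25c without haploid EpiSC-2 (0.13). Between haploid lines Mdm2 turned to 0.042 with centred medians, and Sesn2 ranged from -0.10 to 0.21 without 1 array. Between diploid lines Aen and Sesn2 turned to -0.065 and -0.18 with probe set means, and Zmat3 and Aen ranged from -0.11 to 0.041 and from -0.019 to 0.067 without 1 array. The cause of these changes was not tested. With 2 lines of each ploidy, a difference that missed the threshold does not show equal levels.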
